A study of Arabidopsis thaliana with 4 samples.

Results

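Messenger RNA 3′ ends that carried added uridines were compared with ends that carried no addition in seedlings of the Arabidopsis thaliana mutant xrn4. The ends were read by TAIL-seq, which ligates an adapter to the 3′ end of RNA and reads the poly(A) tract with any nucleotides that follow it. A tail was taken as uridylated where its extension held at least 1 T (the sequencing letter for U) and no G or C, and as unmodified where the extension had size 0. Both sides were thus chosen by the size and letters of the extension. In xrn4 this gave 3939 uridylated and 4990 unmodified tails, together 8929 of the 9797 xrn4 tails and of the 89792 tails in the whole table. The other 868 xrn4 tails carried G or C and were left out of all shares. The seedlings were 2 weeks old and grown on soil in cycles of 16 h light and 8 h darkness. The mutant carried xrn4-3 (SALK_014209), and the libraries set beside it came from WT (ecotype Col0), from urt1-1 (Salk_087647C) and from the urt1-1 xrn4-3 double mutant. The ecotype of the mutants and the number of plants per library are not given in the labels. There was 1 library per genotype, so no difference has a replicate check, and intervals cover counting error alone.

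XRN4 is the main cytoplasmic exoribonuclease of plants that degrades RNA from the 5′ end, after the cap has been removed. URT1 is the uridylyltransferase that adds uridines to the 3′ ends of shortened poly(A) tails. Uridylation of such oligoadenylated ends is known in Arabidopsis both to mark mRNAs on their way to decay and to keep their 3′ ends from being trimmed further. No tail of URT1 (AT2G45620), HESO1 (AT2G39740, a second uridylyltransferase) or XRN4 (AT1G54490) was in the table in any of the 4 libraries, so the genotype could not be checked through these transcripts. The table's A tracts ran from 4 to 30 nt, and longer tails were not analysed here.

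The uridylated ends found on the most loci in xrn4 were A tracts of 10 to 16 nt with 2 U. The 5 on the most loci are shown because the same few ends recurred on many transcripts, with the added bases in capitals and written 5′ to 3′.
13 A and 2 U: aaaaaaaaaaaaaTT
14 A and 2 U: aaaaaaaaaaaaaaTT
12 A and 2 U: aaaaaaaaaaaaTT
15 A and 2 U: aaaaaaaaaaaaaaaTT
10 A and 2 U: aaaaaaaaaaTT
The end of 13 A and 2 U was read 160 times on 61 loci, and that of 14 A 140 times on 60 loci. The end of 12 A and 2 U was read 118 times on 53 loci, and that of 15 A 101 times on 47 loci. The end of 10 A and 2 U had more reads, 176, on fewer loci, 43. That of 16 A and 2 U, not shown, was tied with it at 43 loci and had 80 reads.

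Of all uridylated xrn4 tails, 3243 (82.3%) carried U alone and 696 carried U and A. By sequence, TT made up 35.9% of extensions, TTT 18.2%, T 15.4% and TTTT 5.89%. In WT, TT made up 43.8%, TTT 15.2%, T 24.3% and TTTT 3.12%. Among mixed extensions AT was the commonest in xrn4, with 279 tails on 127 loci, followed by ATT with 80 tails and AAT with 76. As written in the table, all 696 mixed extensions had T as the last letter and 526 had A as the first. The direction of writing is not stated in the sources used here, so mixed extensions are described by composition and number of U. The longest run of U alone had 18 U.

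Uridylated tails in xrn4 had shorter A tracts than unmodified tails. The median was 12 A for uridylated tails (quartiles 8 and 14) and 16 A for unmodified tails (12 and 19). With the added bases counted, uridylated tails had a median of 14 nt (11 and 17), still below that of unmodified tails. Tracts of 13 A or fewer made up 67.8% of uridylated tails and 29.0% of unmodified tails (exact Clopper-Pearson 95% intervals 66.4 to 69.3 and 27.7 to 30.2). Unmodified tails had their highest maximum at 16 A, with 796 tails on 561 loci, or 16.0% of that side. Uridylated tails were spread over 10 to 14 A, each length holding between 7.29% and 9.57% of that side.

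The share of U at a given A length therefore changed steeply. It was 77.1% at 10 A (351 of 455; 73.0 to 80.9), 76.3% at 11 A and 62.7% at 14 A. It was 42.8% at 15 A, 19.7% at 16 A (195 of 991, interval 17.2 to 22.3), 26.1% at 17 A and 20.9% at 18 A. The values at 16 and 20 A were local dips, with 8.37% at 20 A and 15.7% at 21 A. At 16 A there were 796 unmodified tails, against 382 at 15 A and 402 at 17 A. Below 10 A the share was not even: 73.7% at 6 A, 73.0% at 7 A, 42.9% at 8 A and 61.9% at 9 A. The low value at 8 A went with 265 unmodified tails on 202 loci, against 89 at 7 A and 156 at 9 A. By class, the share was 58.1% for 4 to 9 A, 72.9% for 10 to 13 A, 33.4% for 14 to 18 A, 14.1% for 19 to 25 A and 10.8% for 26 to 30 A. In WT these classes had 45.7%, 67.4%, 31.9%, 11.6% and 7.83%. The order of the classes was thus the same in both libraries, and the xrn4 value was the higher one in each class. The intervals of the libraries were apart for 4 to 9 A and 10 to 13 A and overlapped in the 3 longer classes. Counting identical reads once turned the direction for 14 to 18 A, with 28.8% in xrn4 and 30.7% in WT, and the values for 10 to 13 A were 63.7% and 62.4%. By single length, the xrn4 share was above that of WT at 22 of 27 lengths with every read counted and at 17 of 27 with identical reads counted once.

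**Figure D1:**
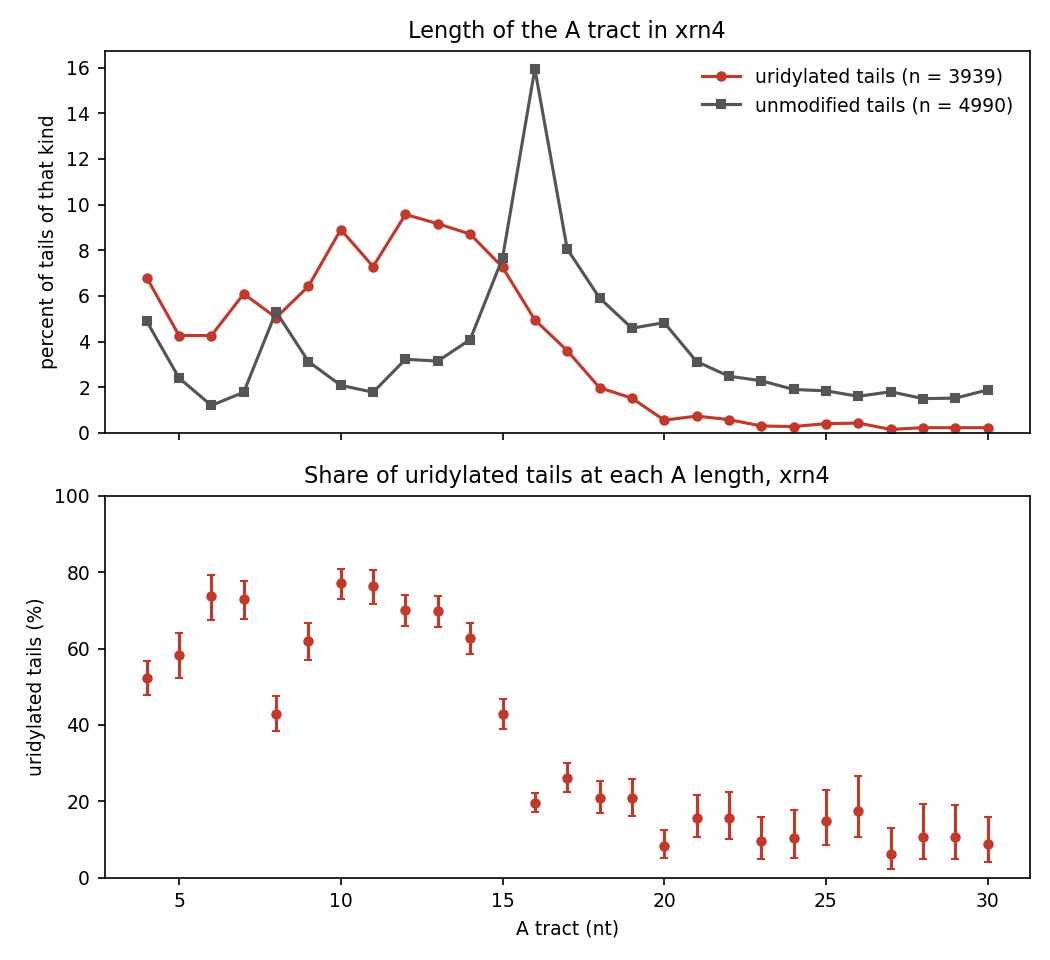
Top, percent of uridylated and of unmodified xrn4 tails (y axis) at each length of the A tract in nt (x axis); bottom, percent of tails of that length that were uridylated, with exact 95% intervals as bars. Unmodified tails peak at 16 A, where 19.7% of tails were uridylated, against 77.1% at 10 A.

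The difference in A length was also present within single transcripts. Over the 23 loci with at least 10 tails on each side in xrn4, uridylated tails had the shorter mean A tract in 22, with a median difference of -3.50 nt. In WT this held for 15 of 15 loci with that many tails, in urt1 for 34 of 35 and in urt1 xrn4 for 36 of 39. The photosystem II antenna gene LHCB2.2 (AT2G05070) had a mean of 11.3 A in 46 uridylated tails and 18.6 A in 29 unmodified tails (SD over tails 3.39 and 5.82). LHCB6 (AT1G15820), a minor antenna protein of that photosystem, had 11.5 and 18.5 A. The ribosomal protein gene emb2386 (AT1G02780, L19e family) had the widest gap with every read counted, 9.52 A against 22.2 A. When identical reads were counted once its difference went from -12.6 to -8.03 nt, and MS2 (AT3G03780), a methionine synthase gene, had the widest, at -10.9 nt. By the median A tract in place of the mean, a measure added after the data were seen, uridylated tails were shorter in 18 of the 23 loci and longer in 5, which were RCA, CRD1 (AT3G56940), LAP2 (AT4G30920), LHCA1 (AT3G54890) and AT5G56710.

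In some abundant transcripts the 2 kinds of tail were of nearly the same mean length with every read counted. RCA (AT2G39730), the Rubisco activase, had 13.7 A in 54 uridylated and 14.4 A in 96 unmodified tails. FBA2 (AT4G38970), a plastid fructose-bisphosphate aldolase, had 13.2 and 13.4 A. The differences were wider with identical reads counted once, -1.74 nt for RCA in place of -0.78 and -1.95 nt for FBA2 in place of -0.21. The exception in the direction of the mean was AT5G56710 (ribosomal protein L31e), with a mean of 12.5 A on both sides and a difference of 0.00887 nt. In that setting its difference was -4.64 nt, and uridylated tails were shorter in 23 of the 23 loci.

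**Figure D2:**
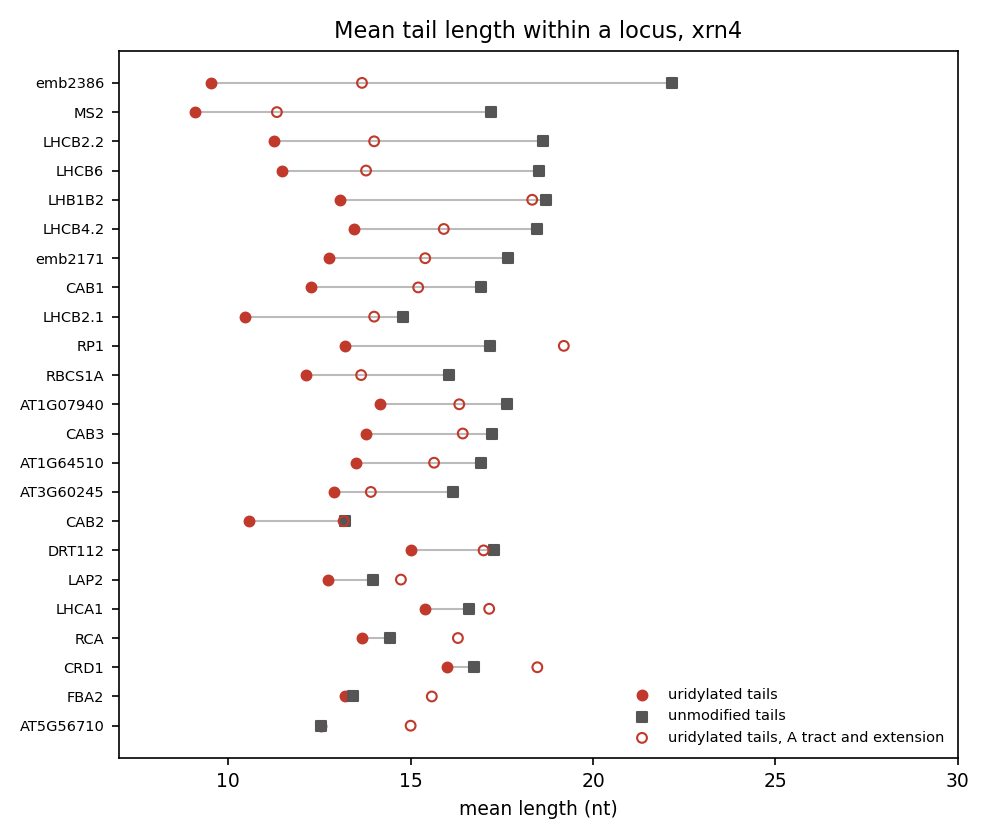
Mean length in nt (x axis) of the A tract of uridylated (filled circles) and unmodified tails (squares), and of uridylated tails with their extension (open circles), for the 23 xrn4 loci with at least 10 tails of each kind (y axis). The filled circle lies left of the square in 22 loci, from emb2386 (9.52 and 22.2) at the top to FBA2 (13.2 and 13.4).

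Extensions in xrn4 held 2.45 U on average. Of the uridylated tails, 24.5% held 1 U, 40.3% held 2, 19.5% held 3 and 7.44% held 4, while 4.49% held 6 or more (177 tails on 47 loci). Longer extensions sat on shorter A tracts. The median tract was 14 A for tails with 1 U, 12 A with 2 U, 10 A with 3 U, 11 A with 4 U, 9 A with 5 U and 6 A with 6 or more U. The total length moved little with the number of U: its median was 15 nt for 1 U, 14 nt for 2, 3, 5 and 6 or more U, and 15 nt for 4 U.

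By A length, 49.8% of uridylated tails of 4 to 9 A held 3 or more U (645 of 1296; 47.0 to 52.5), with a mean of 2.98 U. This was 36.4% for 10 to 13 A (mean 2.44 U), 21.4% for 14 to 18 A (1.95 U) and 11.0% for 19 to 25 A (1.86 U). Of the 50 uridylated tails of 26 to 30 A, 0 held 3 or more U, which allows up to 7.11%, and the mean was 1.18 U. In WT the classes had 32.4%, 22.4%, 15.8%, 12.9% and 1.89% with 3 or more U. The intervals of xrn4 and WT were apart in the 3 classes up to 18 A and overlapped in the others.

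**Figure D3:**
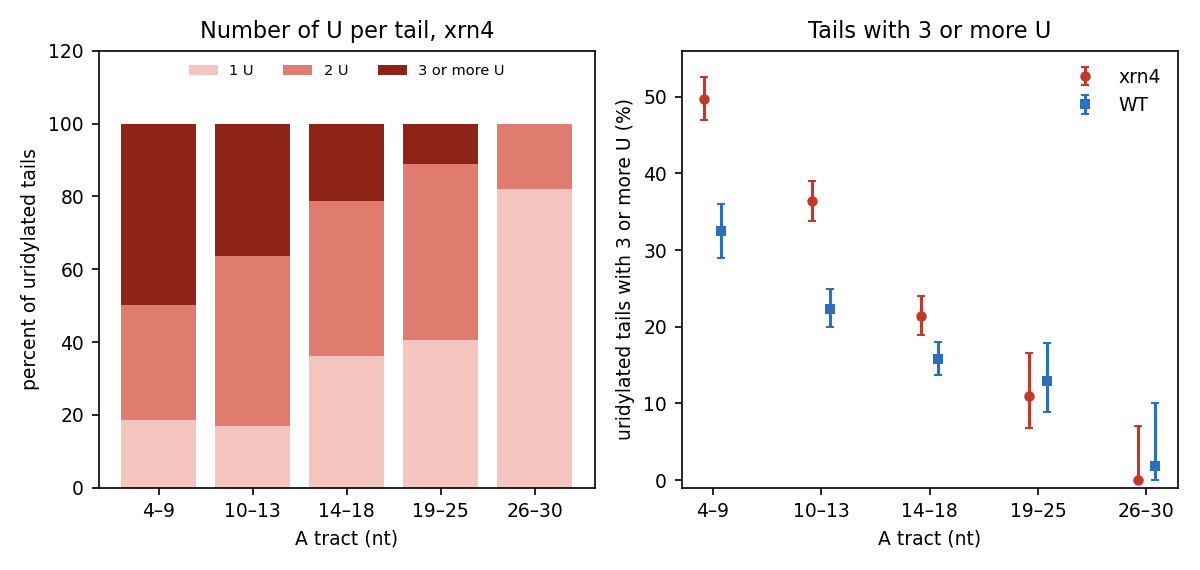
Left, percent of uridylated xrn4 tails with 1, 2 and 3 or more U (y axis) by class of A tract in nt (x axis); right, percent of uridylated tails with 3 or more U in xrn4 and WT, with exact 95% intervals as bars. In xrn4 this percentage goes from 49.8% at 4 to 9 A to 0 of 50 tails at 26 to 30 A.

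Extensions of 6 or more U were mostly sets of identical reads. The locus with the most of them, AT1G26270 (phosphatidylinositol kinase family), had 11 such reads with 1 distinct end. VPS25 (AT4G19003) had 9 reads with 1 distinct end and emb2386 8 reads with 2. These loci were named after their values were seen. Over the library, the 3939 uridylated reads held 1795 distinct combinations of locus, A length and extension (45.6%), and the 4990 unmodified reads held 3338 (66.9%). The corresponding values in WT were 57.4% and 65.7%. Sets of at least 5 identical reads held 42.6% of uridylated and 19.04% of unmodified xrn4 tails, and no molecular identifier was used here. The sources do not state whether copies had been removed before deposition. Whether such sets are copies of 1 molecule was not tested. With each set counted once, uridylated tails made up 35.0% of xrn4 tails in place of 44.1% and 31.3% of WT tails in place of 34.2%. The gap between the libraries was then 3.71 points in place of 9.89. Of the distinct uridylated xrn4 tails, 29.3% held 3 or more U, in place of 35.2%.

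The loci on the 2 sides overlapped in part. Uridylated tails came from 955 loci and unmodified tails from 1800, and 363 loci had both, which is 38.0% of the loci with uridylated tails and 20.2% of those with unmodified tails. Most one-sided loci had few reads: loci with uridylated tails alone (592) had a median of 2 tails, and those with unmodified tails alone (1437) a median of 1. In extracts of whole seedlings, fewer cells that express a gene and less RNA per cell cannot be told apart, so these shares describe tails and not expression. The share of U differed with the number of tails per locus. It was 21.3% over the 1276 loci with 1 tail, 37.2% over loci with 2 to 4 tails, 58.3% with 5 to 9, 54.8% with 10 to 19 and 39.3% with 20 or more. These classes count every read, and a locus with 1 tail cannot hold repeats. Uridylated ends had 2.19 reads per distinct end and unmodified ends 1.49. The classes were not recomputed on distinct ends, so a link of the share with abundance was not tested.

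Both sides were spread over many transcripts. The 10 loci with the most tails on a side held 8.68% of uridylated and 12.5% of unmodified tails, and 5 of the 10 were shared: RCA, FBA2, AT5G56710, CAB1 (AT1G29930) and CAB3 (AT1G29910). CAB1, CAB2 and CAB3 encode near-identical LHCB1 antenna proteins and can share reads. RCA led the uridylated side with 54 tails, and RBCS1A (AT1G67090), a Rubisco small subunit, led the unmodified side with 118 tails.

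Of the 189 loci with at least 10 tails, 32 had uridylated tails alone, 21 had unmodified tails alone and 136 had both. The 32 loci with uridylated tails alone had a median of 3 distinct ends, and 6 of them had 1. Besides those described below they included BIN2 (AT4G18710), a kinase of brassinosteroid signalling, with 16 tails and 5 distinct ends. HIS4 (AT2G28740), a histone H4 gene, had 14 tails with 6 distinct ends, PIN3 (AT1G70940), an auxin efflux carrier, 13 with 4, and the L22e family ribosomal gene AT3G05560 14 with 7. In the libraries that did not choose them, these 32 loci together had 60.5% uridylated tails in WT (69 of 114, over the 14 loci with any WT tail), 25.3% in urt1 xrn4 (65 of 257) and 6.02% in urt1 (20 of 332). The whole libraries had 34.2% in WT, 14.6% in urt1 xrn4 and 7.47% in urt1. Without KUF1 and AT3G56360, described below, the WT value was 43.7% (31 of 71 tails; exact interval 31.9 to 55.95), a setting chosen after the data were seen. The 21 loci with unmodified tails alone had 28.6% in WT (42 of 147), 10.8% in urt1 xrn4 (40 of 369) and 5.58% in urt1 (33 of 591). They included PMDH2 (AT5G09660), a peroxisomal malate dehydrogenase, with 17 tails and 11 distinct ends, and TCTP (AT3G16640) with 12 and 9. The loci named from these 2 sets were chosen after their values were seen.

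Shares per locus were then read over the 54 loci with at least 20 tails, which held 24.6% of the tails. Their median share was 36.9% (quartiles 20.2 and 61.0) and they ranged from 0 to 100%. Counting identical reads once gave these 54 loci a median of 42.8%, above the library's 35.0% in that setting. With every read counted, the exact interval lay above the library's 44.1% for 13 loci and below it for 18. These intervals take each read as a separate draw, although 42.6% of uridylated reads were in sets of at least 5 identical reads. They can thus be too narrow, and this count was not repeated on distinct ends. Each locus was also described by its part of all uridylated tails divided by its part of all unmodified tails. By this ratio 14 of the 54 loci (25.9%) were at least 2-fold over-represented on the uridylated side and 19 (35.2%) at least 2-fold under-represented. Since the extension chose both sides, these counts describe the library and carry no test. Nearest to the limits, LHCB2.2 had a ratio of 2.01 and MS2 1.90, and emb2171 (AT3G04400, ribosomal protein L14p/L23e family) 0.487 and SHM4 (AT4G13930) 0.507. With identical reads counted once, 14 loci had 20 or more distinct ends, of which 3 were 2-fold over- and 0 under-represented. The 54 loci had a median of 14 distinct ends, so most of them were left out of that count. At the limit of 20 tails, the 2 loci with 20 tails had 15% and the 2 loci with 18 tails had 69.4%.

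The 8 highest shares belonged to transcripts of unlike kinds. KUF1 (AT1G31350), an F-box protein gene induced by karrikins, had 26 of 26 tails uridylated (exact interval 86.8 to 100). With every read counted it was 11.0-fold over-represented against a floor of 3 unmodified reads. AT4G16141, a GATA-type zinc finger factor, had 27 of 27, 11.4-fold by the same count, and the uncharacterized AT3G56360 30 of 30, 12.7-fold. In that order these loci had 7, 4 and 5 distinct ends. The interval and the folds take each read as a separate draw. They are thus not lower limits for distinct ends, on which the folds were not computed. AT4G28240, of a wound-responsive family, had 25 of 27 (92.6%). AT2G34480 (ribosomal protein L18ae family) had 21 of 24 (87.5%), AT2G20670 (DUF506) 19 of 22 (86.4%), and AT1G01490 (heavy metal transport family) 26 of 31 (83.9%). AT5G51970, of an alcohol dehydrogenase family, had 22 of 23 (95.7%), and all 22 were 1 end.

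The ends of these loci are printed because they show how few or many distinct ends stand behind such shares. The bases added after the A tract are in capitals.
KUF1, first end: aaaaaaaTT
KUF1, second end: aaaaaaaaaaaaaTT
KUF1, longest end: aaaaaaaaaaaaaaaaTTT
AT4G16141, first end: aaaaaaaaTT
AT4G16141, second end: aaaaaaTTT
AT5G51970, first end: aaaaaaaT
The 26 KUF1 tails had 7 distinct ends, with tracts from 7 to 16 A. The first end had 10 reads, the second 8 and the longest 1. The 27 tails of AT4G16141 had 4 distinct ends, with 15 reads of the first and 7 of the second. The single uridylated end of AT5G51970 had 7 A and 1 U. The 8 loci with the highest shares had between 2 and 14 distinct ends each.

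Of the 8 lowest shares, 4 belonged to the light-harvesting, photosystem and Calvin cycle lists described below, which held 20 of the 54 loci (37.04%). PSAK (AT1G30380), a photosystem I subunit, had 0 of 35 uridylated tails, which allows a share of up to 10.003% by the exact interval. CA1 (AT3G01500), the chloroplast carbonic anhydrase, had 1 of 24 (4.17%), CP12-1 (AT2G47400), a small regulator of the Calvin cycle, 2 of 20 (10%), and LHCA4 (AT3G47470), an antenna protein of photosystem I, 3 of 27 (11.1%). RBCS1A had 14 of 132 (10.6%; 5.92 to 17.2). Beside them were the ribosomal gene AT5G18380 (S5 domain family) with 1 of 25 (4%), AT3G49910 (translation protein of the SH3-like family) with 2 of 34 (5.88%) and ELP (AT1G12090, extensin-like) with 3 of 28 (10.7%). The commonest RBCS1A end, an unmodified tract of 16 A, alone had 25 reads.

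Several of the most abundant transcripts moved when reads were counted in another way. With identical reads counted once, RCA had 61.5% (52 distinct ends), FBA2 51.4% (35) and LHB1B2 (AT2G34420, an LHCB1 antenna gene) 50% (26), each above the 35.0% of the library counted that way, and RBCS1A had 32.4% (34). Counted by reads, these loci were below the library. With extensions of U alone, in place of U with or without A, CAB3 went from 31.5% to 8.96% of 67 tails and CAB1 from 37.2% to 21.0% of 62. DRT112 (AT1G20340, plastocyanin) went from 15.2% to 2.90% of 69 tails, AT3G09200 from 15.1% to 2.174% of 46 and FBA1 from 12.5% to 2.78% of 36. The library share moved from 44.1% to 39.4% in that setting. Much of the uridylation of these 5 transcripts was thus in extensions that also held A.

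**Figure D4:**
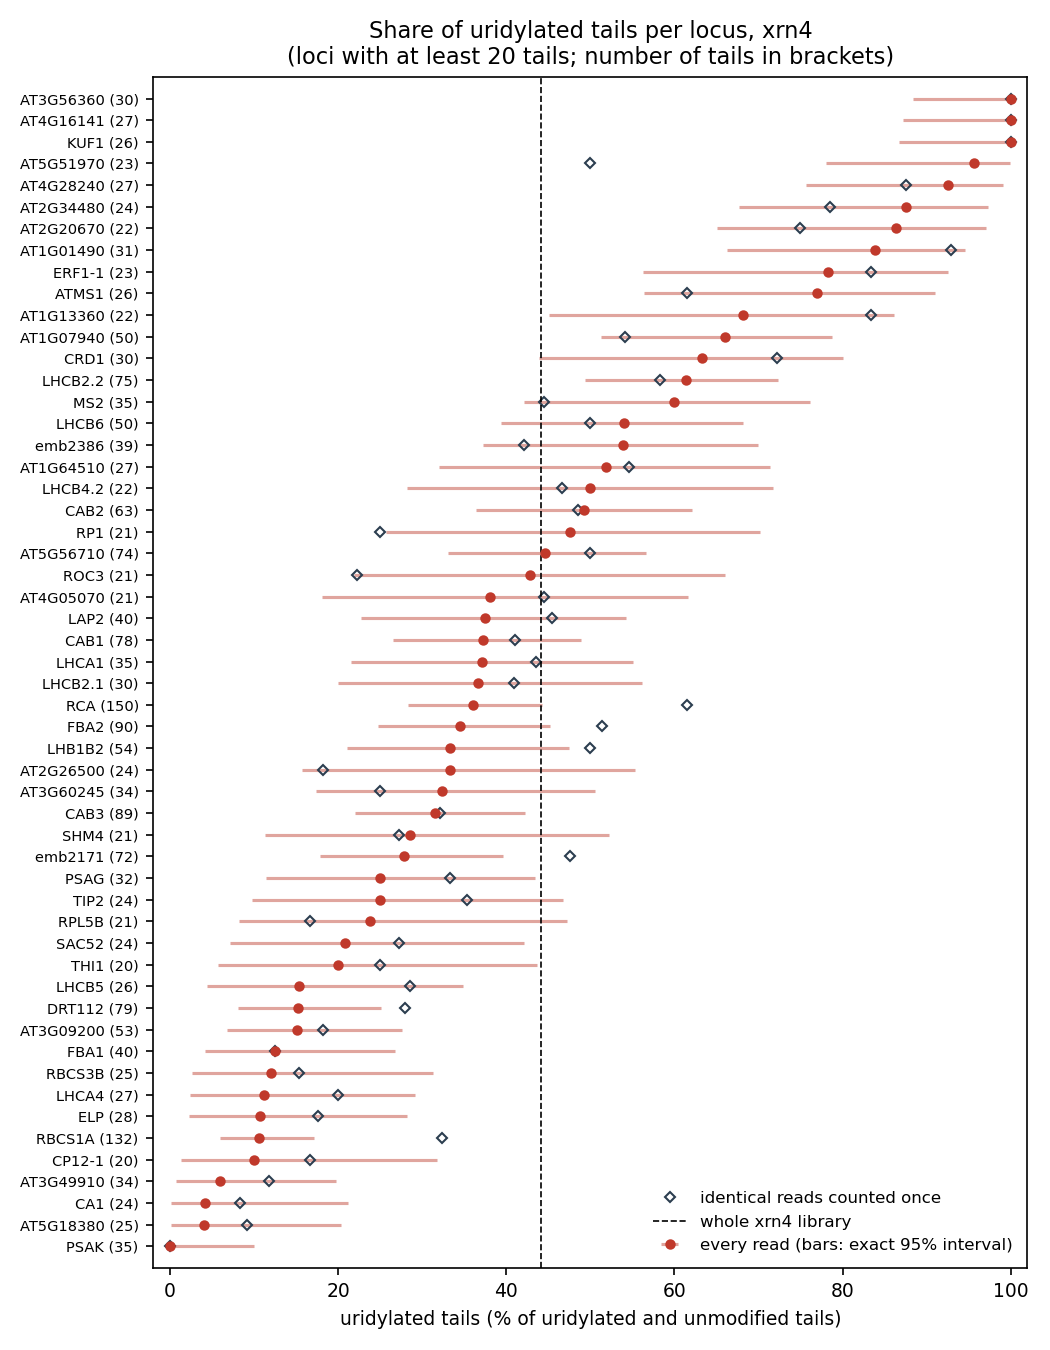
Percent of tails that were uridylated (x axis) for each of the 54 xrn4 loci with at least 20 tails (y axis, number of tails in brackets), with every read counted (filled circles, exact 95% intervals) and with identical reads counted once (diamonds); the dashed line is the whole library at 44.1%. The loci run from PSAK at 0 of 35 tails to KUF1, AT4G16141 and AT3G56360 at 100%.

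Because U was so unevenly spread over A length, each locus was compared with the share its own A lengths would give at the library's rates, with that locus left out. This value ran from 19.4% to 69.1% over the 54 loci, a narrower range than the observed 0 to 100%. Across loci, which share 1 library and are not replicates, observed and length-based shares had Pearson's r of 0.69 and Spearman's rho of 0.65. The A lengths of a locus included those of its uridylated tails, which had the shorter mean in 22 of 23 loci. A locus with more uridylated tails thus tended to get a higher length-based share. A positive correlation was therefore partly built in, and no conclusion is drawn from it. The observed share was more than 20 points above the length-based one in 12 loci and more than 20 points below it in 12. AT2G34480 had 87.5% against 39.6%, AT4G16141 100% against 52.7%, AT2G20670 86.4% against 49.5%, AT1G01490 83.9% against 48.9% and KUF1 100% against 65.7%. On the other side, FBA1 (AT2G21330), a second plastid aldolase, had 12.5% against 49.97%, AT3G09200 (ribosomal protein L10 family) 15.1% against 52.2%, PSAK 0% against 34.0%, AT3G49910 5.88% against 39.3% and CA1 4.17% against 37.1%. For PSAG (AT1G55670), a photosystem I subunit, the 2 values were 25% and 24.4%.

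Gene groups differed in the same library. Of 20 light-harvesting loci listed 17 had tails, with 39.9% uridylated tails (240 of 601; 36.0 to 43.97). Their share was 42.2% with identical reads counted once, above the library's 35.0% in that setting and not below it. Of the 11 with at least 20 tails, 4 lay above the library share and 7 below it, beside 22 and 32 of all 54 loci. Their median was 37.1% beside 36.9% over all 54 loci. LHCB2.2 (61.3%), LHCB6 (54.0%), LHCB4.2 (AT3G08940, 50%) and CAB2 (AT1G29920, 49.2%) were the 4 above. CAB1 had 37.2%, LHB1B2 33.3%, CAB3 31.5%, LHCA1 (AT3G54890) 37.1%, LHCB2.1 (AT2G05100) 36.7%, LHCB5 (AT4G10340) 15.4% and LHCA4 11.1%.

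The other photosynthetic groups had lower shares. Photosystem and electron transport subunits, 28 of 29 loci with tails, had 24.9% (75 of 301; 20.1 to 30.2), and all 3 with at least 20 tails were at least 2-fold under-represented, beside 35.2% of all 54 loci: PSAK, PSAG and DRT112, with 12 of 79 tails (15.2%). PSBR (AT1G79040), a photosystem II subunit, had 4 of 17. Rubisco and Calvin cycle loci, 18 of 22 with tails, had 22.96% (124 of 540; 19.5 to 26.7). All 6 with at least 20 tails were below the library share, beside 32 of all 54 loci. Of these 6, 4 were at least 2-fold under-represented, beside 35.2% of all 54 loci: RBCS1A, RBCS3B (AT5G38410), FBA1 and CP12-1. Of the 14 loci with 20 or more distinct ends, RBCS1A among them, 0 were under-represented when identical reads were counted once. FBA1, with 16 distinct ends, and CP12-1, with 12, were too few to enter that count. In that setting they had 12.5% and 16.7%, below the 35.0% of the library. RCA, with 54 of 150 tails (36.0%), and FBA2, with 31 of 90 (34.4%), were the other 2. With identical reads counted once the pooled Calvin cycle value was 35.3%, close to the 35.0% of the whole library counted that way. The Calvin cycle loci together made up 3.15% of uridylated and 8.34% of unmodified tails. Photorespiration loci, 8 of 12 with tails, had 10 of 42 tails uridylated (23.8%), and 0 of them reached 20 tails. The catalase gene CAT2 (AT4G35090) had 4 of 6, GLDP1 (AT4G33010), of the glycine decarboxylase, 4 of 8, AGT (AT2G13360), an aminotransferase, 1 of 14 and SHM1 (AT4G37930), a serine hydroxymethyltransferase, 0 of 5.

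Translation transcripts were split. Ribosomal protein loci had 37.1% (325 of 877; 33.9 to 40.4) over 123 of 317 loci, and the 10 with at least 20 tails ran from 4% (AT5G18380) to 87.5% (AT2G34480), with a median of 30.1%. Of these, 4 were above the library share and 6 below it, beside 22 and 32 of all 54 loci. By the 2-fold rule 1 was over- and 5 were under-represented, beside 25.9% and 35.2% of all 54 loci. AT5G56710 had 33 of 74 tails (44.6%), emb2171 20 of 72 (27.8%), AT3G09200 8 of 53 (15.1%) and emb2386 21 of 39 (53.8%). Translation elongation factor loci, 5 of 22 with tails, had 43 of 78 tails (55.1%; 43.4 to 66.4), of which AT1G07940 (elongation factor Tu family) gave 33 of 50 (66.0%). With identical reads counted once their share was 40.5%. SCO1 (AT1G62750), a plastid elongation factor, had 8 of 13 tails, AT5G60390 (elongation factor Tu family) 1 of 11 and AT3G08740 (elongation factor P family) 1 of 3. The 2193 loci in no list had 48.1% (46.9 to 49.3) and made up 79.3% of uridylated and 67.5% of unmodified tails. The 3 loci of the uridylation and decay list, URT1, HESO1 and XRN4, had no tails.

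In WT the same lists lay below the library share of 34.2% with every read counted. Light-harvesting loci had 25.04% there (152 of 607), photosystem and electron transport loci 19.1% (65 of 341), Calvin cycle loci 25% (124 of 496), ribosomal protein loci 20.5% (186 of 909) and elongation factor loci 25% (37 of 148). The xrn4 values of the ribosomal protein, light-harvesting and elongation factor lists were higher than the WT ones by 16.6, 14.9 and 30.1 points, beside 9.89 points between the libraries as a whole. When identical reads were counted once these gaps were 10.6, 12.6 and 5.34 points, beside 3.71 for the libraries. The difference between the gaps was not tested. The photosystem list was higher by 5.86 points, and by 0.489 with identical reads counted once. The Calvin cycle value was lower in xrn4 than in WT, with 22.96% against 25%. Photorespiration loci had 30.6% in WT (22 of 72). Not all lists stayed below the WT library when identical reads were counted once. Calvin cycle loci then had 35.9% and elongation factor loci 35.1% in WT, above the 31.3% of that library. The light-harvesting (29.6%), photosystem (23.4%), ribosomal protein (23%) and photorespiration (28.3%) lists stayed below it.

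The number of U also differed between transcripts. Over the 20 loci with at least 20 uridylated tails the mean number ran from 1.00 to 3.90 U, with a median of 2.173. The highest was emb2386, with 3.90 U (SD over tails 2.53), where 15 of 21 uridylated tails held 3 or more. ATMS1 (AT5G17920), a methionine synthase, had 3.20 U, AT3G56360 2.97 U, AT4G16141 2.52 U and RCA 2.44 U. The lowest were AT5G51970 at 1.00 U, AT1G07940 at 1.64 U, CAB1 at 1.69 U, CAB3 at 1.75 U and AT2G34480 at 1.76 U. AT2G34480 thus had one of the highest shares of U with extensions of 1 or 2 U in all 21 tails. Across these 20 loci the mean number of U and the share of U had Pearson's r of 0.04 and Spearman's rho of 0.18, and the mean number of U and the mean A tract -0.17 and -0.27. These loci had a median of 9.5 distinct uridylated ends each. At the ends of the range, AT5G51970 had 1 distinct uridylated end and emb2386 had 8.

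The same loci were then read in the libraries that had no part in choosing them. Of the 33 loci with at least 20 tails in both xrn4 and WT, 26 had the higher share in xrn4, and the medians were 34.4% and 21.7%. Over these loci the shares had Pearson's r of 0.53 and Spearman's rho of 0.29. With urt1 they had r = 0.00049 and rho = 0.02 over 47 loci, with medians of 34.4% and 6.67%. With urt1 xrn4 they had r = 0.28 and rho = 0.16 over 45 loci, with medians of 33.3% and 10%. The points of each comparison share the depth of 2 libraries and are not replicates.

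In WT, 13.2% of loci with at least 20 tails were at least 2-fold over-represented on the uridylated side and 50.9% at least 2-fold under-represented. Of the 5 loci over-represented in xrn4 and read deeply enough in WT, 2 were over-represented in WT too and 1 was under-represented. These were AT4G28240, with 23 of 23 tails in WT (11 distinct ends), and AT3G56360, with 20 of 25. KUF1 had 18 of 18 tails uridylated in WT (5 distinct ends), just under the limit of 20 tails. In urt1 AT3G56360 had 0 of 23, AT4G28240 6 of 19 and KUF1 0 of 3. In urt1 xrn4 they had 9 of 27, 10 of 25 and 1 of 1. Of the 13 under-represented in xrn4, 8 were under-represented in WT, a library in which 50.9% of loci were, and 2 were over-represented. RBCS1A had 10.6% in xrn4 and 10.4% in WT, LHCB5 15.4% and 16.1%, and AT3G09200 15.1% and 14.5%.

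Some transcripts had like shares in xrn4 and WT and others did not. RCA had 54 of 150 tails uridylated in xrn4 (36.0%), 52 of 146 in WT (35.6%), 87 of 306 in urt1 (28.4%) and 22 of 85 in urt1 xrn4 (25.9%). The whole libraries had 44.1%, 34.2%, 7.47% and 14.6%. With every read counted, RCA thus lay below its library in xrn4, near it in WT and above it in urt1 and urt1 xrn4. LHB1B2 had 33.3% in xrn4 and 31.03% in WT.

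AT5G56710 had 33 of 74 in xrn4 (44.6%), 7 of 50 in WT (14%), 1 of 300 in urt1 and 1 of 76 in urt1 xrn4, and xrn4 stood above the other libraries. AT2G34480 had 21 of 24 in xrn4, 6 of 13 in WT, 3 of 48 in urt1 and 4 of 31 in urt1 xrn4. PSAK went the other way, with 0 of 35 in xrn4, 7 of 29 in WT, 14 of 172 in urt1 and 21 of 85 in urt1 xrn4. LAP2, an aminopeptidase, had 15 of 40 in xrn4 and 0 of 29 in WT. LAP2, LHCB5 and CRD1 were named after their values were seen.

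**Figure D5:**
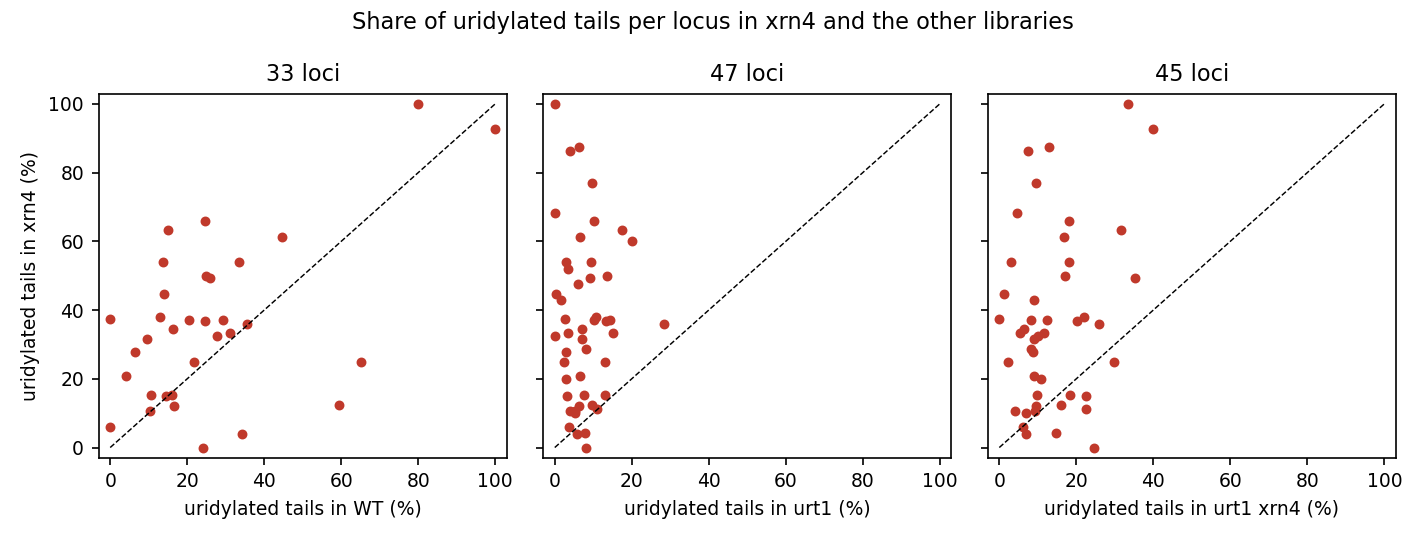
Percent of uridylated tails per locus in xrn4 (y axis) against WT, urt1 and urt1 xrn4 (x axes), 1 point per locus with at least 20 tails in both libraries; the dashed line marks equal shares. Of the 33 loci in the WT panel 26 lie above the line, and with urt1 the points spread along y over a narrow range of x, with a median of 6.67%.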

How the data were processed

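The submitters extracted total RNA with TRIzol and prepared TAIL-seq libraries, per the labels' protocols. Reads were handled with bedtools 2.17.5, Bowtie2, TopHat2 2.0.9 and CASAVA 1.8.2 on build TAIR10, per the submitters' processing notes. Read filters and the way tails were measured are not stated in these sources. The deposited table lists each read with its genotype, A tract length, extension and locus, per the file headers. It holds lengths in nucleotides and no normalised value. The genotype name UX was taken as urt1 xrn4, since the other 3 names equal the other labels. Shares are percentages of uridylated plus unmodified reads, with exact Clopper-Pearson 95% intervals, and a 0 was set to 3 reads for ratios. Identical reads share locus, A length and extension. Symbols and products came from NCBI's TAIR10.1 annotation, in which 2379 of 2392 xrn4 loci were found; no coordinates were used. Ribosomal protein and elongation factor lists were taken from product names, so some plastid proteins may be among the former. Names worded otherwise or naming both classes were left out: 22 loci with a ribosomal or elongation factor product, with 59 of 137 tails uridylated, were in no list, among them AT3G05560, AT3G22230, AT1G64510 and LOS1. Loci whose product names hold neither term were not looked for, so both lists may be incomplete. AT3G49910, whose product is named as a translation protein, was among these and in no list. Other lists were written by locus.

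With 1 library per genotype no p-value was computed. The sides, loci and lists were chosen with earlier results of these data known. Named loci were those with at least 50 tails, the 8 highest and 8 lowest shares, the 10 with most tails on each side, the 5 at each end for number of U and for distance from the length-based share, and up to 4 per list. In figures other loci appear as points. Depth was 9797 tails in xrn4, 10304 in WT, 43391 in urt1 and 26300 in urt1 xrn4. The steps were tested on simulated tails and run with scipy 1.17.1, pandas 2.3.3, numpy 2.4.6 and matplotlib 3.10.9 under Python 3.11.15. Alternatives were counting identical reads once, tracts of 25 A or fewer, extensions of T alone, other minimums of tails and other fold limits.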

Additional observations from a re-analysis of the deposited data

Results flagged for a closer look

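Extensions with C, which the comparison of uridylated and unmodified tails does not use, were on 3.27% of xrn4 tails (exact interval 2.92 to 3.64) and on 2.41% of WT tails (2.12 to 2.72). In all, 3 loci stood on opposite sides of their library in xrn4 and WT, each past 2-fold with every read counted; with 1 library per genotype the difference was not tested. FBA1 had 12.5% uridylated tails in xrn4 (5 of 40, with 2 distinct uridylated ends) and 59.5% in WT (22 of 37, with 12). TIP2 (AT3G26520), a water channel of the vacuolar membrane, had 25% in xrn4 (6 of 24, with 6 distinct uridylated ends) and 65.2% in WT (15 of 23, with 8). With identical reads counted once TIP2 had 35.3% in xrn4, close to the library's 35.0%, and 53.3% in WT. CRD1 (AT3G56940), an enzyme of chlorophyll synthesis, had 63.3% in xrn4 (19 of 30, with 13 distinct uridylated ends) and 15% in WT (6 of 40, with 5). In urt1 xrn4 these 3 loci had 16.0%, 29.7% and 31.5%, beside 14.6% for that library.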

How the results depend on the processing

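The library share of 44.1% was 35.0% with identical reads counted once, 45.9% with tracts of 25 A or fewer, 39.4% with extensions of T alone, 45.4% without the 10 loci with the most tails and 32.4% as a mean over loci with equal weight. The number of loci past 2-fold, 33 of 54 (14 higher, 19 lower), was 3 of 14 when identical reads counted once (all higher), 140 of 189 with a minimum of 10 tails (78 and 62) and 6 of 14 with a minimum of 50; fewer or more loci were read in these settings. The median share per locus was 50% with a minimum of 10 tails and stayed inside its interval in the other settings run. Its side of the library changed, though. As reported, the median of 36.9% lay below the library's 44.1%. On distinct ends it was 48.1% over 14 loci, above the library's 35.0% in that setting. Tracts of 13 A or fewer were 58.8% of uridylated and 26.5% of unmodified tails with identical reads counted once, and 31.6% of unmodified tails with tracts of 25 A or fewer. Uridylated tails with 3 or more U were 29.3% with identical reads counted once, 37.7% with T alone and 28.1% with tracts of 10 A or more, a setting chosen after the data were seen. Pooled shares with identical reads counted once, also chosen after, were 35.3% for Calvin cycle, 33.6% for ribosomal protein and 40.5% for elongation factor loci. Of 99 values for 33 named loci, 86 stayed inside their interval and 12 left it. The other, emb2171, was 47.6% with identical reads counted once, above that library value and not below it. Such a change of side was counted apart only for loci past 2-fold. RCA, FBA2, LHB1B2 and CAB1, which were within 2-fold, also went from below to above the library in that setting. The cause was not tested. No paired analysis was possible because there is 1 library per genotype.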

Other observations

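Unmodified tails had local maxima at 8 and 16 A in xrn4. Tails of 8 A numbered 2.16 times the mean of their neighbours at 7 and 9 A (3.21 times with identical reads counted once), and tails of 16 A 2.03 times that of 15 and 17 A. In WT these ratios were 2.95 and 1.64, in urt1 1.05 and 1.24, and in urt1 xrn4 1.15 and 1.28. Uridylated xrn4 tails had no such maximum, with ratios of 0.807 at 8 A and 0.911 at 16 A.

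The longest mixed extensions in xrn4 came from single loci. AT5G12010 had 7 reads with an extension of 21 letters, of which 13 were T, and AT1G69760 6 reads with an extension of 15 letters, of which 6 were T.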
